A study of Caenorhabditis elegans with 6 samples.

Results

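The 9 genes C38D9.2, C07G1.7, F40D4.13, F41G4.7, F15D4.5, ZK177.9, F22B3.7, F42C5.6 and T22B7.3 of Caenorhabditis elegans carry no gene-class name and are known by the clone-based sequence names of the genome project. They were chosen because earlier results of these same arrays showed little signal in wild-type worms and much in atfs-1(et18) worms, so the genotype difference of these genes is given below as a description and not as a test. They are 9 of 17138 genes with a probe set of their own on the array, and 12 probe sets map to them, 3 to F41G4.7, 2 to T22B7.3 and 1 to each of the others. A further probe set that the annotation shares between F41G4.7 and another gene was left out. The gene table lists all 9 as protein coding. No role is given for them here, because the sources used name none.

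RNA was taken from whole worms at L4, the last larval stage before adulthood, in 2 genotypes with 3 biological replicates each. The wild-type group was strain N2, and the mutant group carried the et18 allele of atfs-1, with no other allele or agent named for either group. Both groups were synchronised by bleaching, grown on solid medium with the E. coli strain OP50 as food, and differ only in genotype as far as the labels say. The mutant group is labelled as a single line, so that the allele and any other difference between that line and N2 cannot be told apart. Because whole worms were used, more cells expressing a gene and more RNA per cell cannot be told apart either.

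The bZIP protein ATFS-1 drives transcription in the mitochondrial unfolded protein response. In unstressed worms it is imported into mitochondria and degraded there; when import fails it enters the nucleus and switches on genes for mitochondrial chaperones, proteases, metabolism and detoxification. The et18 allele is a gain-of-function point mutation in the mitochondrial targeting sequence, so that the protein can act in the nucleus without mitochondrial stress. The comparison asks which transcripts change in worms with this constitutively active form.

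The signals are MAS5 values, an Affymetrix measure that subtracts local background and a mismatch signal, scaled so that the trimmed mean was about 500.2 on each array. Correlations of log2 signals were 0.937 to 0.973 between arrays of 1 genotype and 0.895 to 0.941 between genotypes, and precision is limited by the number of arrays. The 40th percentile of an array, at a signal of 62.8 to 80.7, served as the limit below which a probe set is called dim. The probe set of atfs-1 itself is marked by its suffix as able to bind other transcripts. It had signals of 207, 284 and 277 in N2 and 346, 355 and 289 in the mutant. The log2 difference was 0.38 ± 0.20 (SE, n = 3 per genotype, limma adjusted p = 0.400), which does not check a point mutation. Of 45 marker genes for 9 tissues and cell types of the worm, 43 had a probe set and 40 lay above the 40th percentile on all 6 arrays, the exceptions being ceh-22 of the pharynx and the yolk genes vit-2 and vit-5, each below that limit on at least 1 array. All 4 yolk protein genes measured (vit-2, vit-4, vit-5 and vit-6) fell in the mutant, with limma adjusted p from 0.00117 to 0.0152, and the summed yolk signal was 6221 to 10516 in wild-type and 894 to 1521 in mutant arrays. The summed body wall muscle signal also did not overlap (44160 to 50473 against 35813 to 41701), with 0 of its 5 genes called by limma. The part of these shifts in the values below was not tested.

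Of the 9 genes, 7 were dim on every wild-type array with each of their probe sets, at percentiles between 2.58 and 33.2, while F15D4.5 and T22B7.3 were not dim in wild type. On the mutant arrays the probe sets that represent the 9 genes lay between percentiles 56.6 and 94.5. The description "dim in wild type" therefore holds for 7 of the 9, and F42C5.6 was only a little above the middle of the mutant arrays. All 12 probe sets were separated by genotype, with the lowest mutant array above the highest wild-type array, as were 12.9% of all 10613 genes tested in this direction.

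**Figure D1:**
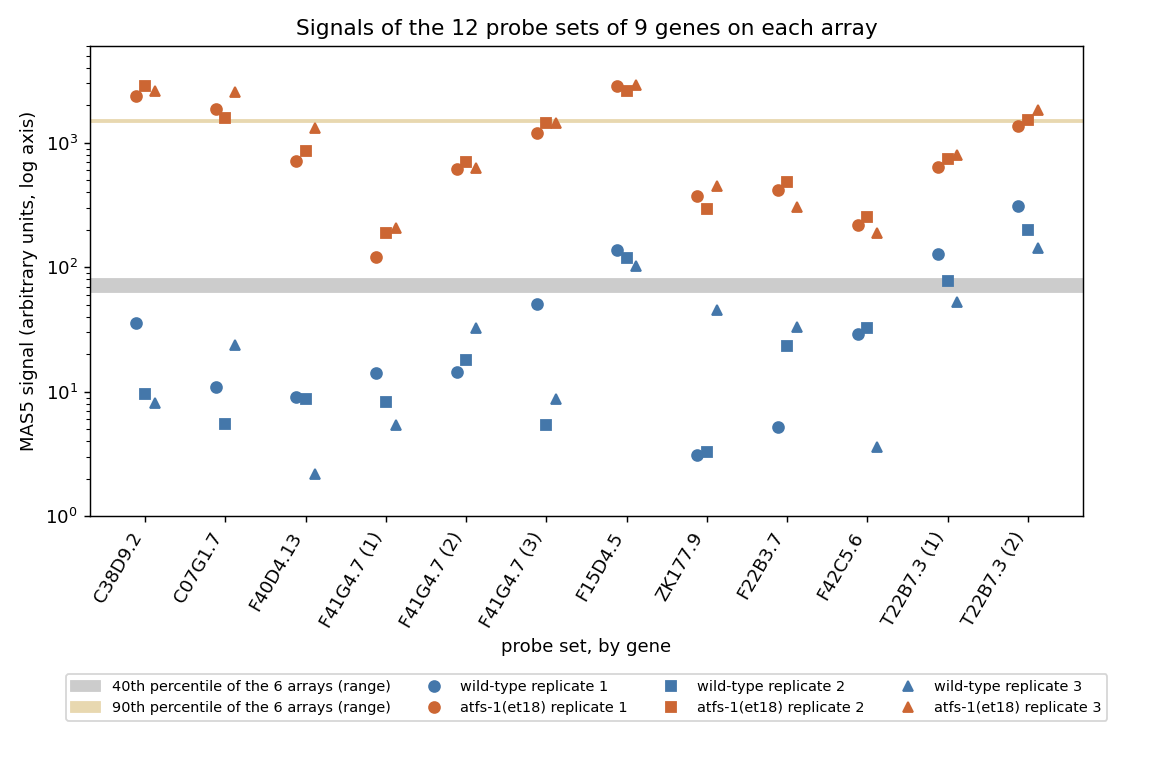
Signal (log axis) of each of the 12 probe sets on each array, with wild-type in blue, atfs-1(et18) in orange and a symbol for each replicate; the grey and yellow bands are the ranges of the 40th and 90th percentiles over the 6 arrays. Every orange symbol lies above every blue symbol of its probe set, and the blue symbols of F15D4.5 and of the second T22B7.3 probe set lie above the grey band.

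The gene C38D9.2, on chromosome V, had signals of 35.5, 9.69 and 8.13 on the wild-type arrays and of 2379, 2875 and 2596 on the mutant arrays. All 3 wild-type values lay far under the dim limit, and all 3 mutant values were close together, with a coefficient of variation of 9.51%. The mean rose from 17.8 ± 15.4 to 2617 ± 249 (SD, n = 3), which is at least 36.7-fold. This bound sets the geometric mean of the mutant signals against the geometric mean of the 40th percentiles of the wild-type arrays. The percentiles stand in because a dim MAS5 signal is not a measured level. Every fold written "at least" below was made the same way, while the means printed with an SD are arithmetic.

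C07G1.7, on chromosome IV, gave 10.96, 5.47 and 23.6 on the wild-type arrays and 1883, 1590 and 2574 on those of the mutant. The mutant arrays spread more than those of C38D9.2, with replicate 3 the highest and a coefficient of variation of 25.1%, but none came near the wild-type values. Its mean signal in the mutant was 2015 ± 505 (SD, n = 3), at least 27.8-fold above wild type.

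F40D4.13, on chromosome V like C38D9.2 and atfs-1, had wild-type signals of 9.14, 8.70 and 2.17 and mutant signals of 721, 866 and 1323. Here too replicate 3 of the mutant was the highest array, and the coefficient of variation of 32.4% was the highest of the 9 genes. The mutant mean was 970 ± 314 (SD, n = 3), and the rise was at least 13.2-fold.

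F41G4.7, on the X chromosome, was measured by 3 probe sets that all went the same way. The probe set with the highest mean, which is marked by its suffix as able to bind other transcripts, gave 50.9, 5.41 and 8.77 in wild-type and 1189, 1448 and 1439 in mutant worms. The specific probe set gave 14.4, 18.0 and 32.7 against 611, 699 and 633. The third, also able to bind related transcripts, gave 14.0, 8.23 and 5.44 against 121, 190 and 208. None of the 9 wild-type values passed the dim limit and each of the 9 mutant values did, so the probe sets share the direction. Their bounds are at least 19.1-fold, at least 9.11-fold and at least 2.37-fold in the order given, of which the second rests on the probe set with no mark of cross-binding; bounds follow the brightness of each probe set and do not show different ratios.

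The genes ZK177.9, F22B3.7 and F42C5.6 had lower mutant signals, and their bounds are accordingly small. ZK177.9, on chromosome II, gave 3.10, 3.30 and 45.4 in wild type and 371, 291 and 451 in the mutant, where the mean was 371 ± 80.0 (SD, n = 3), at least 5.15-fold higher. Its wild-type replicate 3 was also below the dim limit. F22B3.7, on chromosome IV, gave 5.23, 23.4 and 32.9 in wild type and 419, 480 and 307 in the mutant (mean 402 ± 87.6, SD), which is at least 5.57-fold. F42C5.6, also on chromosome IV, gave 29.0, 32.4 and 3.62 against 221, 253 and 189 (mean 221 ± 32.3, SD), at least 3.09-fold. For all 3 genes every wild-type array was dim and every mutant array lay above the dim limit.

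F15D4.5 and T22B7.3 differ from the other 7 in having a wild-type signal above the dim limit, so that a ratio can be measured for them. F15D4.5, on chromosome II, had signals of 139, 118 and 103 in wild type, close to the median of each array, and of 2872, 2590 and 2934 in the mutant. The mutant arrays had the lowest coefficient of variation of the 9 genes, 6.55%, and the log2 difference was 4.56 ± 0.17 (SE). T22B7.3, on the X chromosome, gave 311, 201 and 142 in wild type and 1373, 1529 and 1841 in the mutant on the probe set with the higher mean. Its other probe set gave 129, 78.2 and 52.7 against 638, 735 and 804, with wild-type replicate 3 below the dim limit. The log2 differences of 2.92 ± 0.28 and 3.16 ± 0.31 (SE) of these 2 probe sets lie within 1 SE of each other, so the probe sets give much the same change.

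**Figure D2:**
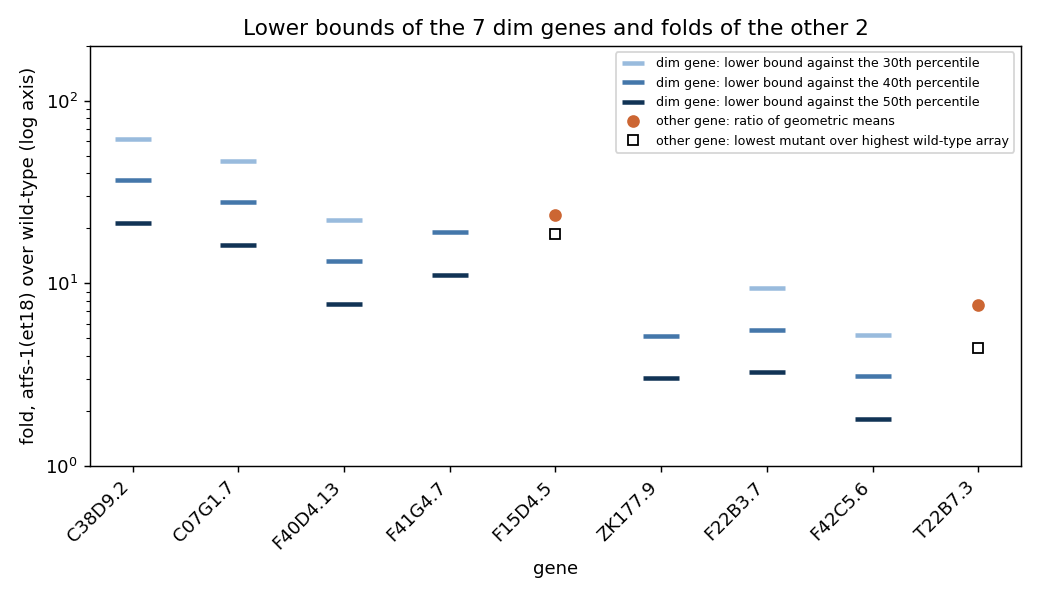
Fold of atfs-1(et18) over wild-type (log axis): for the 7 dim genes the lower bound against the 30th, 40th and 50th percentile of the wild-type arrays (dashes, where the gene is dim at that percentile), for the other 2 genes the ratio of geometric means (orange) and the lowest mutant over the highest wild-type array (squares). The bound of C38D9.2 runs from 21.5 to 62.1 with the percentile, and for F15D4.5 the ratio is 23.5 and the closest arrays are 18.7-fold apart.

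The bounds depend on where the dim limit is put. With the 50th percentile in place of the 40th, the bound of C38D9.2 is at least 21.5-fold, that of C07G1.7 at least 16.2-fold and that of F42C5.6 at least 1.80-fold. With each array left out in turn, the bound of C38D9.2 stayed between 35.0 and 39.2. That of F40D4.13, which moved most, stayed between 11.1 and 15.1. The wild-type signals of a dim gene do not enter its bound, so leaving out a wild-type array moves only the percentile. Among the 286 genes called higher by limma, ordered by the bound for dim genes and the ratio for others, C38D9.2, C07G1.7 and F15D4.5 take the first 3 places and F42C5.6 place 80. By log2 change, which for dim genes rests on dim wild-type signals, F15D4.5 takes place 8 and F42C5.6 place 11. These places are a description, since the genes were chosen on this contrast. The SD of the log2 signals was 0.10 to 0.45 on the mutant arrays over the 12 probe sets, against a median of 0.22 over all genes tested. On the wild-type arrays it was 0.61 to 2.21 over the 9 dim probe sets, against a median of 0.285 over all genes tested.

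On the plot of genotype means the 7 dim genes lie to the left of the dim limit. All 12 probe sets passed the filter on dim values, 9 of them through the mutant arrays alone, so that a difference was built into their selection for the test. The limma fit called 9 of the 9 genes higher, against 2.69% of all genes tested; since the genes were chosen on this contrast, nothing is read from that count.

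**Figure D3:**
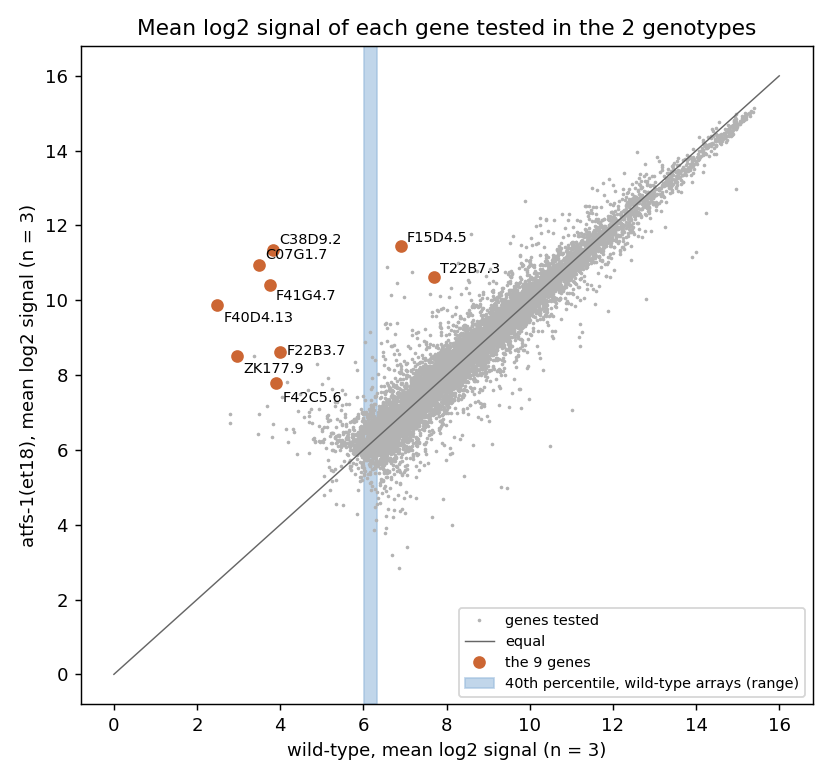
Mean log2 signal in atfs-1(et18) (vertical) against wild-type (horizontal) for the 10613 genes tested (grey), with the 9 genes in orange; n = 3 arrays per genotype, the line marks equal signal and the blue band the range of the 40th percentile on the wild-type arrays. The 7 dim genes lie left of the band, and F15D4.5 and T22B7.3 lie right of it.

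Sequence-named genes as a class were called in both directions. Of 3884 tested, 112 were called higher (2.88%) and 38 lower (0.978%), against 174 (2.59%) and 107 (1.59%) of 6729 genes with another name. The dim ones are few: 34 sequence-named genes were tested although dim on every wild-type array, and 10 of them (29.4%) were called higher, 7 of which are described above. The other 3 were F55G11.7, at least 5.12-fold higher, C06C3.5, at least 2.55-fold, and F36D1.8, at least 2.40-fold. These genes could enter the test only through the mutant arrays, so the share says nothing of how often dim genes rise.

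A stricter pattern, chosen after the data were seen, asked for genes dim on every array of 1 genotype and above the 60th percentile on every array of the other. It held for 8 of 17138 genes in the direction of the mutant, of which 6 were among the 9 described, joined by F55G11.7 and the cytochrome P450 gene cyp-14A4. In the opposite direction it held for 3 genes, pud-3, the acyl-CoA dehydrogenase gene acdh-2 and C09B8.4. F42C5.6 missed it because 1 mutant array lay at percentile 56.6. The 9 genes were chosen for little signal in wild type and much in the mutant, so nothing is read from these counts.

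The chromosomal neighbours were not used to choose the 9 genes, so their changes were tested in the limma fit over all probe sets. In the gene table of assembly WBcel235 the 9 genes lie on chromosomes II (2 genes), IV (3), V (2) and X (2), none of them among the 3 nearest protein-coding genes of another. Of the 54 genes that are the 3 nearest on each side, 46 had a probe set of their own and 31 were bright enough to be tested. Limma called 4 of the 31 (12.9%, against 4.06% of all genes tested in either direction), 3 higher and 1 lower. Among the higher genes svh-1 was dim on every wild-type array and entered the test through the mutant arrays alone, so that a difference was partly built into its selection. Of the 30 neighbours above the dim limit on at least 1 array of each genotype, a count made after the data were seen, 2 were called higher and 1 lower (10%), against 3.79% of the 10485 genes measured in this way. The median log2 change of the 31 was -0.01, against 0.005 over all genes tested. The other 27 of the 31 did not pass the threshold.

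Next to F15D4.5 both called neighbours were higher in the mutant. F15D4.6, the following gene, gave 115, 58.7 and 81.7 in wild type and 251, 227 and 308 in the mutant, a log2 change of 1.66 ± 0.30 (SE, limma adjusted p = 0.0181). The call of F15D4.6 was lost without wild-type replicate 2 or 3 or without mutant replicate 1 or 3 (highest adjusted p = 0.0946). The gene romo-1, whose homologue modulates reactive oxygen species at the mitochondrial inner membrane, gave 2696, 2782 and 2764 against 5869, 4992 and 4584, a log2 change of 0.90 ± 0.14 (limma adjusted p = 0.00938). That probe set may cross-bind, the call ended without wild-type replicate 2 or mutant replicate 1 (highest adjusted p = 0.0673), and the other romo-1 probe set was dim on all 6 arrays and gives no direction. The gene between romo-1 and F15D4.5, F15D4.4, was too dim to be tested.

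C07G1.7 lies within the span of svh-1, which encodes a growth factor-like protein needed for axon regeneration. svh-1 gave 56.7, 33.7 and 33.7 in wild type and 116, 136 and 195 in the mutant, at least 2.05-fold higher (limma adjusted p = 0.0319). All 3 wild-type arrays were dim, and with no filter on dim probe sets the adjusted p was 0.0555 (limma). Its call ended in 7 of 16 alternatives, 5 of which left out 1 array (highest adjusted p = 0.177 over all 16), and its second probe set was dim on all 6 arrays. The next gene on one side, C07G1.6, gave 1.26 ± 0.38 and the TRP channel gene ocr-2 on the other gave 0.88 ± 0.33 without passing the threshold (limma adjusted p = 0.129 and 0.213). Where genes overlap, as also for ZK177.9 with ZK177.3, F42C5.6 with npr-27 and T22B7.3 with srv-7, the gene table used gives no strand, and which transcript a probe set binds was not tested.

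Beside F42C5.6 the called neighbour went the other way. The ground-like gene grl-4, of the hedgehog-related family, gave 773, 767 and 737 in wild type and 128, 187 and 260 in the mutant, a log2 change of -2.04 ± 0.25 (SE, limma adjusted p = 0.00338), measured on a probe set with the suffix for possible cross-binding. The gene rps-8, of the small ribosomal subunit, which follows it, was 0.03 ± 0.17 (limma adjusted p = 0.955). On the other side npr-27, which overlaps F42C5.6, was -0.07 ± 0.39 (SE, limma adjusted p = 0.948). The other tested neighbours of F42C5.6 ran from -0.49 (F42C5.5) to 0.47 (F42C5.4) and were not called. Thus F42C5.6 was higher in the mutant while grl-4 fell and its other tested neighbours were not called. None of the tested neighbours of C38D9.2, F40D4.13, F41G4.7, ZK177.9, F22B3.7 or T22B7.3 was called; only 1 neighbour each was bright enough for C38D9.2 (Y6G8.2, log2 change -0.80 ± 0.31 SE) and F40D4.13 (ZK218.11, -0.10 ± 0.41). The 4 tested neighbours of F41G4.7 ran from -0.47 (the stomatin gene sto-5) to 0.21 (cas-1), and the 3 of F22B3.7 from -0.11 (gfat-2) to 0.30 (F22B3.8). Around T22B7.3 they ran from -0.28 (T22B7.4) to 0.16 (egl-13, a SOX-type transcription factor gene), and around ZK177.9 from -0.07 (sahd-1) to -0.01 (ZK177.2), while ZK177.9 itself was at least 5.15-fold higher.

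**Figure D4:**
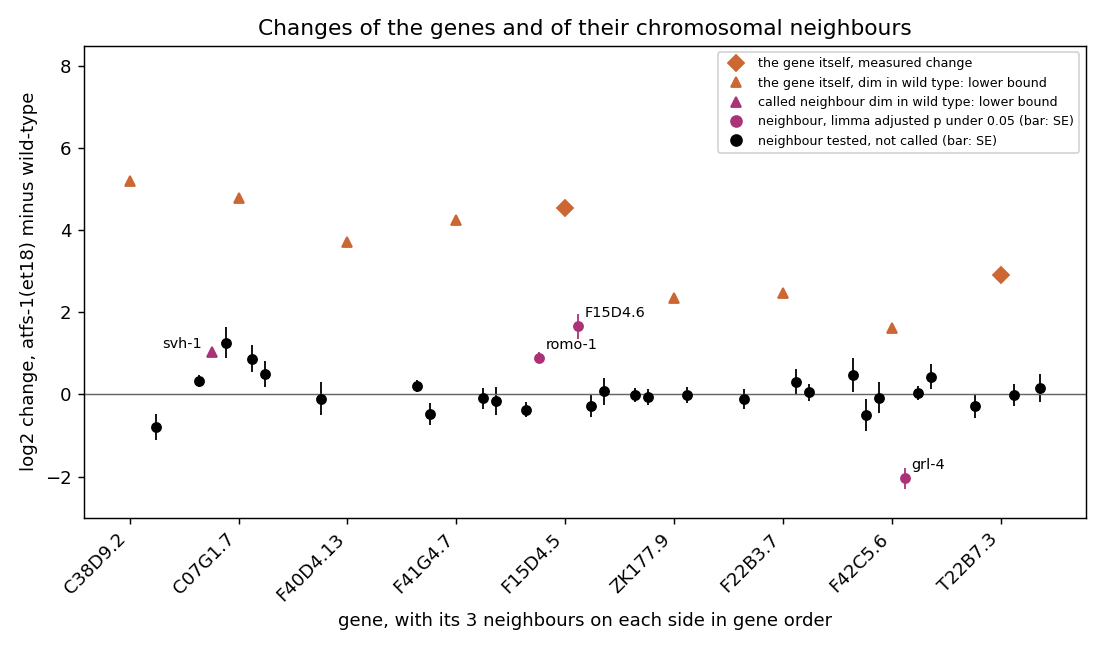
Log2 change (atfs-1(et18) minus wild-type) of each of the 9 genes (orange) and of the 3 nearest protein-coding genes on each side in gene order, with SE bars for those tested. Triangles are lower bounds for genes dim in wild type, svh-1 included. The 4 called neighbours are labelled, 3 above zero and grl-4 at -2.04, and neighbours too dim to be tested are not drawn.

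Among the mutant arrays 4 of the 9 genes were highest in replicate 2 (C38D9.2, F41G4.7, F22B3.7 and F42C5.6), 5 in replicate 3 and 0 in replicate 1. The median signals of mutant replicates 1, 2 and 3 were 122, 111 and 129. The same count over all genes tested was not made, so nothing is read from this one. Dim wild-type signals carry no order.

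The other genes with the most similar pattern were found by the root mean square difference, over the 6 arrays, between log2 signals centred on the wild-type mean of a gene and the median of the 9 genes, among 3558 genes with a wild-type median percentile under 60. For 7 of the 9 genes, and for the compared genes that are dim in wild type, the wild-type mean is made of signals under the dim limit, so the ranking is a description with no firm order. The closest was F55G11.7, with a difference of 0.95, from a median of 3.93 over all these genes. It gave 6.15, 8.72 and 20.8 in wild type and 390, 417 and 296 in the mutant. Next came the SWEET sugar transporter gene swt-6 (1.06), which gave 108, 61.3 and 132 against 1851, 2115 and 1716, and the UDP-glucuronosyltransferase gene ugt-43 (1.20), which was dim in wild type and at 98.5, 155 and 125 in the mutant.

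The remaining 7 were C40A11.8, the kinesin-associated gene kap-1, cyp-14A4, the claudin-like gene clc-11, the C-type lectin gene clec-17, F36D1.8 and the chemoreceptor-type gene srw-85, with differences from 1.32 to 1.75. Of these 10 genes, 3 have only a sequence name. Among the 9 genes themselves, F15D4.5 lay closest to the common profile (0.75) and T22B7.3 farthest (1.87), which is farther than any of the 10. This likeness is a ranking by centred, unscaled log2 signals over 6 arrays of 2 genotypes. It follows the size of the rise, so any gene with a rise near that of the median profile scores well in it.

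**Figure D5:**
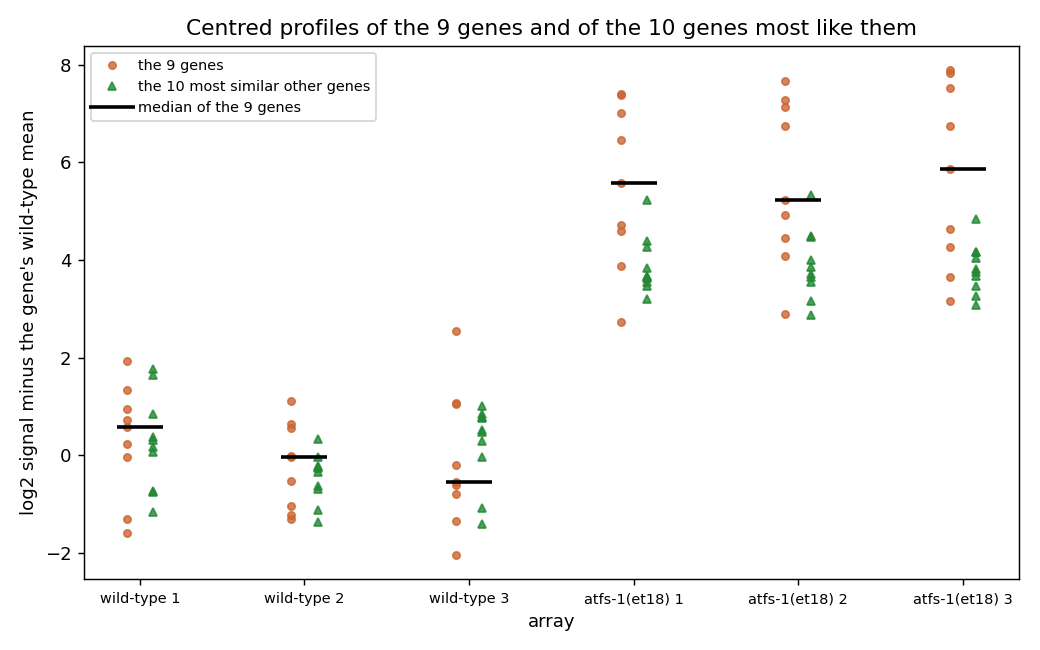
Log2 signal of each array minus the wild-type mean of the gene, for the 9 genes (orange circles), the 10 most similar other genes (green triangles) and the median of the 9 (black dashes). The medians are 5.58, 5.23 and 5.87 on the 3 mutant arrays, and the wild-type values scatter, those of dim genes being no measured levels.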

How the data were processed

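The deposited intensity values are linear MAS5 signals per probe set of Affymetrix C. elegans arrays, per the submitters' processing notes, hybridised with biotin-labelled cRNA from 2 ug of total RNA, per the labels' protocols. The MAS5 version, its scaling target and its detection calls are not given in these labels. Left out were 77 control probe sets. Gene symbols came from the platform annotation, updated by gene identifier with the gene table of assembly WBcel235 (20701 probe sets matched, 65 kept the annotation's symbol); 20766 of 22548 probe sets had 1 symbol, 887 several and 895 none. A gene was represented by its tested probe set of highest mean log2 signal. Probe sets above the 40th percentile of their array on at least 3 of 6 arrays (13792) were tested with limma 3.58.1 in R 4.3.3 (log2 with no offset, eBayes with trend, two-sided, Benjamini-Hochberg, adjusted p under 0.05). An exact test of 3 against 3 arrays cannot go below p = 0.1. The limma script was tested on simulated data. Alternatives were 2 scalings, offsets of 16 and 64, 2 filters, no trend, array weights, the replicate block, 2 choices of probe set and each array left out. Chosen after seeing the data were the stricter dim and high pattern, the count of neighbours above the dim limit in each genotype, and the bounds with each array left out.

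The members, the neighbour rule (3 genes on each side), the likeness measure and the marker lists were chosen with earlier results of these data known. Named genes are the 9 members, each called neighbour with others of the same locus, the 10 most similar genes, up to 3 further dim sequence-named genes, and atfs-1; the genes of the stricter dim and high pattern, cyp-14A4 included, and the markers are exceptions. Protein relatives and promoter motifs were planned and are not analysed here. Plots were made in Python 3.11.15 with matplotlib 3.10.9.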

Additional observations from a re-analysis of the deposited data

How the results depend on the processing

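The number of the 9 genes called higher was 8 with the 60th percentile filter, where F42C5.6 could not be tested, 8 with no intensity trend, and 7 to 9 with 1 array left out; it was 9 under the other alternatives. With the replicate number as a block the counts were 9 of the 9 genes, 3 neighbours, 71 sequence-named genes higher and 10 dim ones. Deviations of same-numbered arrays correlated at 0.171 and 0.175 in replicates 1 and 2 and at -0.397 in replicate 3. Those of differently numbered arrays ran from -0.501 (wild-type 1 with mutant 2) to 0.478 (wild-type 1 with mutant 3). The numbers therefore show no pairing of the samples. Called neighbours numbered 2 without probe sets that bind several transcripts, which removes the probe sets of romo-1 and grl-4 that were called, and 1 to 5 with 1 array left out. Sequence-named genes called higher numbered 112, 74 with no trend, 299 with array weights and 40 to 181 with 1 array left out; the dim ones numbered 10, 16 with an offset of 64, 20 with array weights, 18 with dim set at the 50th percentile and 6 to 14 with 1 array left out. The log2 changes of the 9 genes kept their sign throughout. Every mutant array lay above every wild-type array for each probe set, so offsets and left-out arrays could not change the sign. Offsets of 16 and 64, which shrink ratios of dim signals by construction, gave C38D9.2 6.37 and 5.05, C07G1.7 6.13 and 4.73, F40D4.13 5.41 and 3.83, F41G4.7 5.38 and 4.09, F15D4.5 4.38 and 3.96, ZK177.9 3.75 and 2.44, and F22B3.7 3.58 and 2.46, and the offset of 64 gave F42C5.6 1.75. F41G4.7 was 4.99 without probe sets that bind several transcripts, 5.31 with the mean of its probe sets and 4.74 without wild-type replicate 1. With 1 array left out the log2 changes ran from 7.14 to 8.20 for C38D9.2, 6.94 to 7.995 for C07G1.7, 6.72 to 7.75 for F40D4.13, 4.90 to 6.84 for ZK177.9, 3.83 to 5.16 for F22B3.7 and 2.84 to 4.42 for F42C5.6, which rest on dim wild-type signals. No bound moved by more than 1.19-fold, but the wild-type signals of a dim gene do not enter its bound. With 5 neighbours on each side, 51 were tested, of which 3 were called higher and 1 lower. The count called stayed at 4 while the number tested rose from 31. The share called was therefore lower than the 12.9% found with 3 on each side, which stood against 4.06% of all genes tested. Where no cause is stated, the cause was not tested. Among neighbours above the dim limit on at least 1 array of each genotype, a setting chosen after seeing the data like the bounds with 1 array left out, 3 were called. Protein relatives and their E-value limit were not run, since no protein sequences were used here. Signals below the 40th percentile give only bounds, and the bound for C38D9.2 is 21.5-fold at the 50th percentile.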
